A study of Ovis aries with 44 samples.

Results

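The cyclic AMP phosphodiesterases of the *PDE4*, *PDE7* and *PDE8* families were read in the *semimembranosus*, a hind limb muscle, of 22 lambs. The members were the probe sets with the symbol *PDE4A*, *PDE4B*, *PDE4D*, *PDE7A*, *PDE7B*, *PDE8A* or *PDE8B* in the annotation of the platform, and the *PDE4D* and *PDE7A* probe sets that the paper tested by quantitative PCR and that have no symbol there. This gave 5 genes of 9157 that could be named, and 5 of 24016 probe sets, 1 each for *PDE4A*, *PDE4D*, *PDE7A*, *PDE7B* and *PDE8A*, so 5 of the 7 symbols were found. The paper took *PDE4D* and *PDE7A* from the genotype comparison of the same arrays. It reports by quantitative PCR that both differed by genotype in a larger set of lambs that included these. *PDE8A* is named there as found on the arrays and was not tested by quantitative PCR. The difference on the arrays is therefore not independent evidence for these genes.

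Callipyge is an inherited muscle hypertrophy of sheep that appears in lambs with the mutant allele (C) from the sire and the normal allele from the dam (+/Cpat). At 4 ages (10, 20, 30 and 80 d), 2 callipyge (+/Cpat) and 2 normal (+/+) animals were sampled, and the age of 30 d also had 3 maternal heterozygotes (Cmat/+) and 3 homozygotes (C/C). All genotypes were naturally inherited and came from planned matings, and each lamb had 1 array. RNA was hybridized to a bovine Affymetrix array, so levels were compared between lambs for 1 probe set and never between probe sets. The values are RMA values, which are normalized and on the log2 scale, and a difference of 1 is therefore a 2-fold difference.

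Cyclic AMP is made by adenylyl cyclases when receptors such as the beta-adrenergic receptors activate the stimulatory G protein, and it activates protein kinase A (PKA). Phosphodiesterases end the signal by hydrolysing cyclic AMP. The *PDE4*, *PDE7* and *PDE8* families act on cyclic AMP and not on cyclic GMP, and *PDE4* enzymes are a main cyclic AMP hydrolysing activity of skeletal muscle, a tissue that enlarges when beta-adrenergic agonists are given. Rolipram inhibits *PDE4* enzymes, and *PDE8* enzymes are known for their high affinity for cyclic AMP.

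The *PDE4D* transcript is also defined by the primer pair that the authors designed for its quantitative PCR, which is shown because it is the only sequence at hand that marks the transcript. The lower case letters are the primers as listed, 5′ to 3′, and each has 22 bases.
PDE4D forward: taaacagtacaaaggggacact
PDE4D reverse: ctgtaagagaggctaagaaacc

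Several arrays stood apart. The 10 arrays at 30 d and those of replicate 1 at 20 d, 12 in all, had mean RMA values of 5.66 to 5.70, while the remaining 10 had 5.50 to 5.52, with as many +/Cpat as +/+ lambs in each set. The first +/Cpat lamb at 20 d had the lowest difference between the 3′ and 5′ probe sets of actin, 0.05, where the other lambs of the paternal comparison had 0.40 or more. At 30 d the third Cmat/+ lamb had a *DLK1* value of 11.02, against 9.56 and 9.21 in the other Cmat/+ lambs, 9.70 to 10.44 in C/C and 11.40 and 11.88 in +/Cpat lambs. Its *MEG3* value of 12.44 lay with the other Cmat/+ lambs, at 12.50 and 12.30. *DLK1* and *MEG3* are imprinted genes of the callipyge locus, expressed from the paternal and the maternal allele, respectively, and the results at 30 d are given with and without this lamb.

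Of the 5 phosphodiesterase probe sets, 4 were higher in callipyge than in normal muscle. Averaged over the 4 ages, *PDE4D* was 3.16-fold, *PDE7A* 2.59-fold, *PDE8A* 1.56-fold and *PDE4A* 1.25-fold higher in +/Cpat lambs, and *PDE7B* was not called. Over all probe sets 3.26% were called at an adjusted p under 0.1, and 1.59% were called and higher. In *PDE4D*, *PDE7A* and *PDE8A*, both +/Cpat lambs were above both +/+ lambs at all 4 ages, which held for 0.708% of all probe sets. The paper had taken these genes from the same arrays, and *PDE4D* and *PDE7A* are members only because it named their probe sets. The shares over all probe sets are therefore a description and no test of the members.

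**Figure D1:**
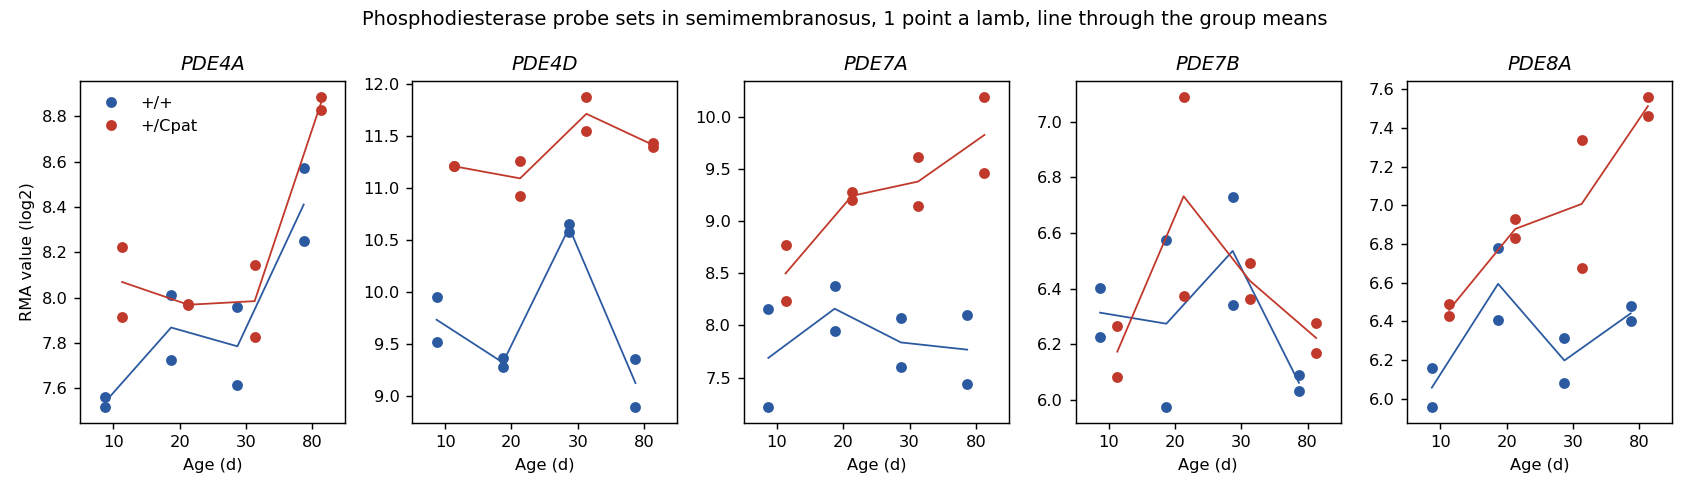
RMA values (log2, y axis) of the 5 phosphodiesterase probe sets at 10, 20, 30 and 80 d (x axis), with 1 point for each +/Cpat (red) and +/+ (blue) lamb and lines through the group means. The 2 genotypes do not overlap at any age for *PDE4D*, *PDE7A* and *PDE8A*, overlap at 2 of 4 ages for *PDE4A* and at 3 of 4 ages for *PDE7B*, and the y axes differ between panels.

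*PDE4D*, a phosphodiesterase that anchoring proteins hold near PKA, had the second smallest genotype p-value of all 24016 probe sets. Its RMA values in +/Cpat lambs were 11.21 and 11.22 (10 d), 10.93 and 11.26 (20 d), 11.55 and 11.88 (30 d), and 11.40 and 11.44 (80 d). In +/+ lambs they were 9.96 and 9.52, 9.29 and 9.36, 10.58 and 10.66, and 9.36 and 8.90 at the same ages. The lowest callipyge lamb of any age was thus above the highest normal lamb of any age. The difference of 1.66 had an SE of 0.0966 and an adjusted p of 5.4e-07 by limma, and the exact permutation test within ages gave p = 0.00154, two-sided, the smallest value that this test allows. As the paper took *PDE4D*, *PDE7A* and *PDE8A* from these same arrays, the rank and the genotype p-values of these genes describe the difference and are not independent evidence.

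In order of age the *PDE4D* difference was 1.48, 1.77, 1.09 and 2.29, and limma called it at each age (adjusted p = 0.0157, 0.00156, 0.0836 and 0.000168). Of all probe sets, 0.0583%, 0.0375%, 0.0625% and 0.637% were called at these ages. These shares moved with single lambs, and the fits without 1 lamb called 3 to 1009 probe sets at 10 d (14 with all lambs), 6 to 1908 at 20 d (9), 1 to 26 at 30 d (15) and 21 to 199 at 80 d (153). The counts of 1009 and 1908 came without the second +/Cpat lamb of the respective age, that of 1 without the second +/Cpat lamb at 30 d and that of 21 without the second +/+ lamb at 80 d. The +/+ lambs at 30 d were above all other +/+ lambs in *PDE4D*. The call at 30 d was lost in 10 of the 16 fits that each left out 1 lamb.

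*PDE7A*, a phosphodiesterase with high affinity for cyclic AMP, had RMA values in +/Cpat lambs of 8.23 and 8.77 (10 d), 9.28 and 9.21 (20 d), 9.14 and 9.62 (30 d), and 9.46 and 10.20 (80 d). The +/+ lambs had 8.16 and 7.21, 8.38 and 7.95, 7.60 and 8.07, and 8.10 and 7.43. The 2 genotypes came nearest at 10 d, where the lower callipyge lamb was just above the higher normal lamb, and lay farthest apart at 80 d. The difference over 4 ages was 1.38 (SE 0.167, adjusted p = 0.000615 by limma, exact permutation p = 0.00154). By age it was 0.81, 1.08, 1.55 and 2.06, and it was called at 80 d (adjusted p = 0.0163) but not at 10, 20 or 30 d (adjusted p = 0.489, 0.557 and 0.288).

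*PDE8A*, a phosphodiesterase that rolipram does not inhibit, had RMA values in +/Cpat lambs of 6.49 and 6.43 (10 d), 6.93 and 6.83 (20 d), 6.68 and 7.34 (30 d), and 7.56 and 7.46 (80 d). In +/+ lambs they were 6.16 and 5.96, 6.78 and 6.41, 6.08 and 6.32, and 6.40 and 6.48. The gap was narrow at 20 d and wide at 80 d, where the lower callipyge lamb (7.46) was far above the higher normal lamb (6.48). The difference over 4 ages was 0.64 (SE 0.0987, adjusted p = 0.00327 by limma, exact permutation p = 0.00154). It was 0.40, 0.28, 0.81 and 1.07 by age and was called at 80 d alone (adjusted p = 0.0369), and without the 80 d lambs the difference over the other ages was 0.50 and not called (adjusted p = 0.166).

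*PDE4A*, another rolipram-sensitive phosphodiesterase, differed less. Its +/Cpat lambs had 8.22 and 7.92 (10 d), 7.97 and 7.97 (20 d), 7.83 and 8.14 (30 d), and 8.83 and 8.89 (80 d). The +/+ lambs had 7.52 and 7.56, 8.01 and 7.73, 7.61 and 7.96, and 8.57 and 8.25. The genotypes were separate at 10 and 80 d and overlapped at 20 and 30 d. The difference of 0.32 (SE 0.0898) lay just inside the threshold, with an adjusted p of 0.0955 by limma and p = 0.00926 by the exact permutation test. It was called at no single age, and 10 of 17 other settings and 11 of the 16 fits without 1 lamb lost the call.

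*PDE7B*, the paralog of *PDE7A*, showed no call. Over the 16 lambs its values ran from 5.97 to 7.09, both at 20 d, where the first +/Cpat lamb had 7.09 and the second +/+ lamb 5.97. The difference over 4 ages was 0.09 (95% interval -0.15 to 0.34, adjusted p = 0.846), and by age it was -0.14, 0.46, -0.11 and 0.16. The callipyge lambs were above the normal lambs at 80 d alone, and the interval does not reach the differences of *PDE7A* or *PDE8A*.

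**Figure D2:**
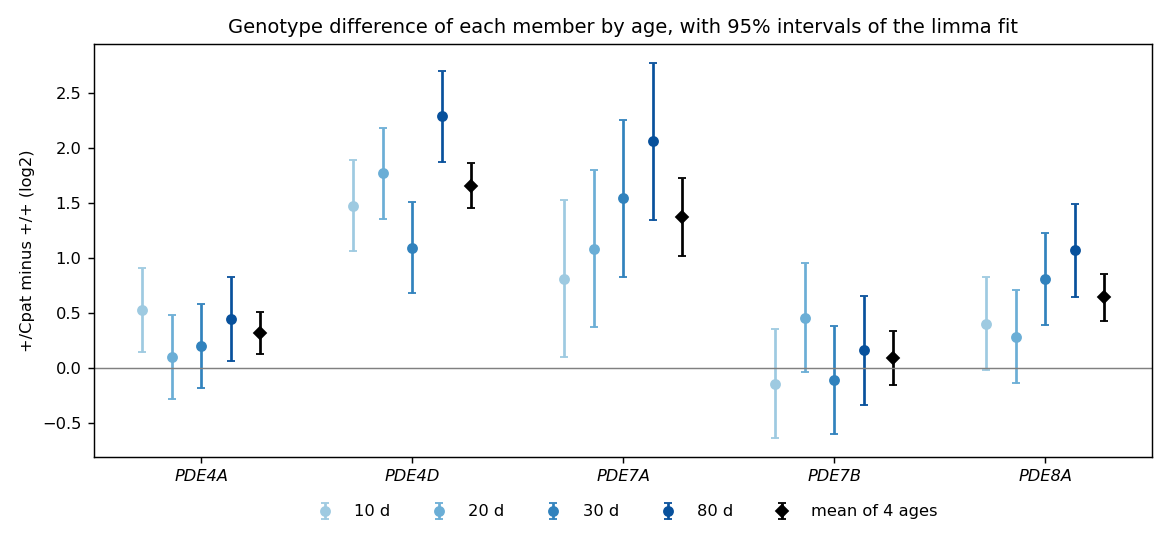
Difference between +/Cpat and +/+ lambs (log2, y axis) of each phosphodiesterase probe set at 10, 20, 30 and 80 d (circles, light to dark) and as the mean of 4 ages (black diamonds), with 95% intervals of the limma fit. All intervals of *PDE4D* and *PDE7A* lie above 0, and the mean over 4 ages of *PDE7B*, 0.09, has an interval that spans 0.

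No genotype by age interaction was called in a member. The genotype by age interaction had an unadjusted limma p of 0.00425 for *PDE4D*, 0.0461 for *PDE8A*, 0.0842 for *PDE7A*, 0.27 for *PDE7B* and 0.32 for *PDE4A*, and the adjusted p was 0.9998 for each. Across all probe sets, 0 interactions (0%) were called by limma and 783 passed 0.05 without adjustment, and MAS5 values with an offset of 1 and the replicate block each called 1. Without the second +/Cpat lamb at 20 d, 150 interactions were called, none of them in a member.

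Levels also changed with age in 3 of the 5 members, *PDE4D*, *PDE4A* and *PDE8A* (adjusted p = 0.00242, 0.00307 and 0.0175 by limma), where 25.7% of all probe sets were called. *PDE4A* was highest at 80 d in both genotypes, with a mean of 8.86 in +/Cpat and 8.41 in +/+ lambs. *PDE8A* was highest at 80 d in +/Cpat lambs, with a mean of 7.51, but not in +/+ lambs, which had 6.44 at 80 d and 6.59 at 20 d. *PDE4D* was highest at 30 d in both genotypes (means 11.72 and 10.62), and without the 30 d lambs its age effect was not called (adjusted p = 0.509). Because nearly the whole array set with the higher mean values was sampled at 30 d, these levels were refitted: with a term for the array set the adjusted p was 0.00593 for *PDE4D*, 0.00423 for *PDE4A* and 0.0148 for *PDE8A*. This term rests on the lambs at 20 d alone, the only age with arrays of both sets. The refit therefore cannot tell age apart from array set at 30 d unless the set difference at 20 d also holds there. With MAS5 values none of the members was called for age, and 2 probe sets were called in all.

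In the order of the 10 group means of *PDE4D*, the 4 callipyge groups came first, at 11.72 (30 d), 11.42 (80 d), 11.21 (10 d) and 11.10 (20 d). They were followed by +/+, C/C and Cmat/+ lambs at 30 d (10.62, 10.47 and 10.10), whose values overlapped, and by +/+ lambs at 10, 20 and 80 d (9.74, 9.32 and 9.13), of which the last 2 overlapped. The order of *PDE7A* began with +/Cpat lambs at 80, 30 and 20 d (9.83, 9.38 and 9.24), each overlapping the next, and the C/C lambs (8.61) stood next.

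The same arrays read by MAS5, another summary of the probes, gave the same direction over 4 ages for all 5 probe sets. *PDE4D* scaled intensities were 13364 to 18792 in +/Cpat lambs and 4069 to 9411 in +/+ lambs over all ages. Its MAS5 difference was 1.50 (SE 0.142, adjusted p = 0.00186) and that of *PDE7A* was 1.61 (SE 0.228, adjusted p = 0.024). *PDE8A* had a MAS5 difference of 0.70 (SE 0.214, adjusted p = 0.343) and *PDE4A* one of 0.72 (SE 0.341, adjusted p = 0.567), so neither was called, and at 30 d the difference of *PDE8A* was 0.12 by MAS5 against 0.81 by RMA. *PDE7B* had 0.04 (SE 0.178).

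**Figure D3:**
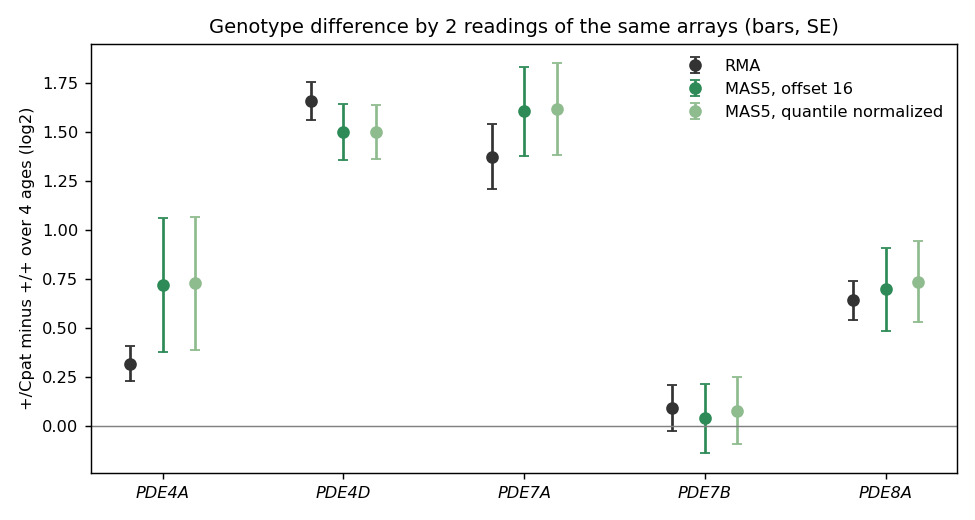
Difference between +/Cpat and +/+ lambs over 4 ages (log2, y axis) for the 5 phosphodiesterase probe sets by RMA (black) and by MAS5 with an offset of 16 or with quantile normalization (green), with bars of 1 SE. The readings lie close for *PDE4D* (1.66 and 1.50) and *PDE8A* (0.64 and 0.70), and the MAS5 bars of *PDE4A* and *PDE8A* are wider than the RMA bars.

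Further probe sets bear on the members without a symbol. A second probe set shares the cluster number in the identifier of the *PDE7A* probe set and has no symbol, and it was higher by 1.49 in callipyge lambs (adjusted p = 0.000124). A second one with the cluster number of the *PDE4D* probe set was higher by 0.75 (adjusted p = 0.00375). It was dim, with RMA values of 3.05 to 5.11 over all lambs, below the mean of every array. The second one with the cluster number of *PDE7B* had a difference of 0.08 (adjusted p = 0.869). A probe set that the supplementary annotation of the paper names *PDE4B* was higher by 0.73 (adjusted p = 0.0133), and it was also selected there for genotype.

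At 30 d the 4 genotypes separate the parental origin of the allele from its presence, and the comparison of C/C with Cmat/+ lambs uses animals outside the arrays on which *PDE4D* and *PDE7A* were chosen. Both groups carry a maternal C allele and differ by a paternal one. In the fit to the 10 arrays at 30 d, no member was called in any of the 5 contrasts between genotypes. For *PDE4D* in +/Cpat minus +/+ lambs the call thus depended on the fit, with an adjusted p of 0.916 here and of 0.0836 in the fit to 16 arrays, for the same difference of 1.09. Of all probe sets, C/C minus +/Cpat called 0.0874%, C/C minus +/+ 0.0250%, +/Cpat minus +/+ 0.0167%, Cmat/+ minus +/+ 0.0125% and C/C minus Cmat/+ 0% (0 by limma, and 1187 at an unadjusted p under 0.05). With array weights or all 22 arrays in 1 fit, 1 probe set was called for C/C minus Cmat/+.

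*PDE4D* was 10.25, 10.55 and 10.60 in C/C lambs and 10.02, 9.30 and 10.98 in Cmat/+ lambs. The C/C lambs lay below both +/Cpat lambs (11.55 and 11.88) and near the +/+ lambs (10.58 and 10.66), while the third Cmat/+ lamb was above all C/C lambs and the other 2 below them. C/C minus Cmat/+ was 0.36 (SE 0.318, 95% interval -0.34 to 1.07, adjusted p = 0.946), and the exact permutation test gave p = 0.6, where 3 against 3 lambs cannot go below 0.1. Without the third Cmat/+ lamb the difference was 0.80 (SE 0.205, adjusted p = 0.288). That lamb was the highest of its group, so leaving it out had to lower the group mean and raise the difference. Leaving out another lamb gave a difference as low as -0.035.

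Of these 5 contrasts, *PDE4D* differed most in C/C minus +/Cpat, -1.25 (SE 0.356, 95% interval -2.03 to -0.47), with an unadjusted limma p of 0.00487 and an adjusted p of 0.439. C/C minus +/+ was -0.15 (SE 0.356) and Cmat/+ minus +/+ was -0.52 (SE 0.356), or -0.96 without the third Cmat/+ lamb. Over the 2 paternal backgrounds, the maternal C allele, for which 0.112% of all probe sets were called, went with a *PDE4D* difference of -0.88 (adjusted p = 0.335). Without the third Cmat/+ lamb it was -1.10 (adjusted p = 0.0743), which was called. That lamb had the highest *PDE4D* value of the Cmat/+ lambs (10.98). Leaving it out thus lowers their mean and their spread, and this call depends on that choice. These contrasts share lambs and are not separate evidence.

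*PDE7A* was 8.48, 9.14 and 8.21 in C/C lambs and 7.47, 7.86 and 9.66 in Cmat/+ lambs. The third Cmat/+ lamb was the highest of the 10 lambs at 30 d, and the other 2 were below all C/C lambs. C/C minus Cmat/+ was 0.28 (SE 0.462, exact permutation p = 0.7), and without that lamb 0.95 (SE 0.269, adjusted p = 0.321). Leaving out the highest lamb of the group had to raise the difference, and leaving out another lamb gave one as low as -0.15. C/C minus +/Cpat was -0.77 (SE 0.516) and C/C minus +/+ was 0.77 (SE 0.516), so the mean of the C/C lambs, 8.61, lay between those of +/Cpat (9.38) and +/+ lambs (7.84). Cmat/+ minus +/+ was 0.49 (SE 0.516), and without the third lamb it was -0.17.

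*PDE8A* was 6.50, 6.40 and 6.90 in C/C lambs and 6.18, 6.13 and 6.73 in Cmat/+ lambs. Here too the third Cmat/+ lamb was above the other 2, which lay below all C/C lambs. C/C minus Cmat/+ was 0.25 (SE 0.211, exact permutation p = 0.4), and 0.44 (SE 0.205) without that lamb, a rise that follows from leaving out the highest of the group. C/C minus +/Cpat was -0.41 (SE 0.236) and C/C minus +/+ 0.40 (SE 0.236). By MAS5 the first of these was 0.076, so its sign turned.

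*PDE4A* and *PDE7B* did not separate the genotypes at 30 d. *PDE4A* ran from 7.86 to 8.48 in C/C and from 7.77 to 8.30 in Cmat/+ lambs, the highest of the latter being again the third. *PDE7B* ran from 6.07 to 6.66 in C/C and from 6.48 to 6.55 in Cmat/+ lambs, where the third lamb lay with the others. The paternal C allele, over both maternal backgrounds, went with differences of 0.73 for *PDE4D*, 0.91 for *PDE7A* and 0.53 for *PDE8A* (adjusted p = 0.734, 0.76 and 0.684), and 0.0167% of all probe sets were called for it. The interaction of both alleles, called in 0.0125% of all probe sets, was called in no member.

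**Figure D4:**
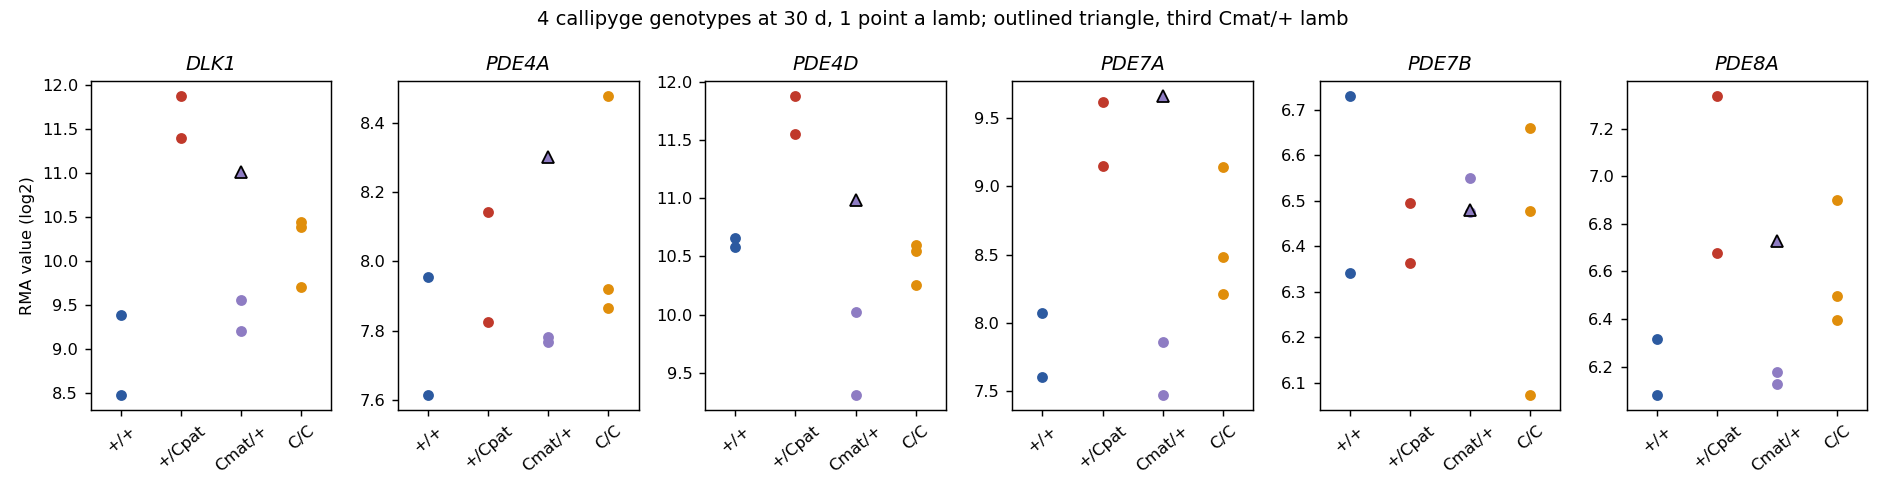
RMA values (log2, y axis) of *DLK1* and the 5 phosphodiesterase probe sets in +/+, +/Cpat, Cmat/+ and C/C lambs at 30 d (x axis), with 1 point for each lamb and an outlined triangle for the third Cmat/+ lamb. That lamb lies above the other Cmat/+ lambs in *DLK1* (11.02), *PDE4D* (10.98), *PDE7A* (9.66), *PDE8A* (6.73) and *PDE4A* (8.30), and with them in *PDE7B*.

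Over the 16 lambs of the paternal comparison, after the mean of each age was subtracted, Pearson's r was 0.913 between *PDE4D* and *PDE7A*, 0.906 between *PDE7A* and *PDE8A* and 0.846 between *PDE4D* and *PDE8A*. *PDE7B* had r of 0.228 to 0.288 with the other members. These values describe lambs that fall into 2 genotypes, which raises r between any 2 probe sets that differ by genotype. Within each genotype, over 8 lambs, the mean of each age was subtracted too. The 2 lambs of an age then deviate equally in opposite directions, so each r rests on fewer independent values than 8. Between *PDE4D* and *PDE7A*, r was 0.341 in +/Cpat and 0.849 in +/+ lambs. It was 0.307 and 0.636 between *PDE7A* and *PDE8A*, and 0.56 and 0.136 between *PDE4D* and *PDE8A*. The values of these pairs were below those of the same pairs over both genotypes. This did not hold for every pair. In +/+ lambs *PDE7B* had r of 0.81 with *PDE4A*, 0.758 with *PDE8A*, 0.318 with *PDE7A* and -0.142 with *PDE4D*. In +/Cpat lambs these were 0.266, 0.349, -0.082 and -0.567. With so few independent values, r within a genotype cannot show whether the members were less alike there.

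Among probe sets with 1 gene symbol, those most like *PDE4D* over the 16 lambs were *MEG3* (r = 0.958), *KCMF1*, a ubiquitin ligase (0.953), *DNTTIP1*, a subunit of a histone deacetylase complex (0.937), *DLGAP4* (0.933) and *RPS6KA3*, the kinase RSK2 that can phosphorylate CREB (0.932). Over all 22 lambs *MEG3* fell to 0.331, whereas *DNTTIP1* had 0.915 and *DLK1*, with 0.92 over 16 lambs, had 0.876. Most like *PDE7A* were *CDC16* (0.932), *AGO2* (0.924), *MEG3* (0.917), *RPS6KA3* (0.917) and *KCMF1* (0.916). Most like *PDE8A* were *SCYL2* (0.953), *HABP4* (0.943), *FRMD3* (0.933), *PDLIM7* (0.925) and *RPS6KA3* (0.922).

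The share of calls in the rest of the cyclic AMP pathway was near that of all genes. Of 130 listed genes 81 were measured, and by the brightest probe set of each gene 3 were higher and 2 lower (6.17%) in callipyge muscle. The other 76 were not called, and the median difference was -0.03. Over all 9155 genes 193 were higher and 234 lower (4.66%), with a median of -0.01.

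Of the enzymes around cyclic AMP, none was called. This held for 11 other phosphodiesterases, with *PDE6H* nearest (0.25, adjusted p = 0.356), 7 adenylyl cyclases and associated proteins, with *ADCY2* nearest (0.29, adjusted p = 0.176), 7 PKA subunits and inhibitors, with the regulatory subunit *PRKAR2A* nearest (0.23, adjusted p = 0.236), 7 anchoring proteins (*AKAP4*, -0.21, adjusted p = 0.445) and 4 other cyclic AMP binding proteins (*RAPGEF3*, -0.18, adjusted p = 0.496). Of 18 receptors, G proteins and regulators, 1 was called, *RAMP1*, a partner of the calcitonin receptor-like receptor, which was lower by both of its probe sets, with a difference of -0.44 for the brighter (adjusted p = 0.037).

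Downstream, 1 of 7 genes of the CREB group, 2 of 14 CREB response genes and 1 of 7 PKA substrates of muscle were called. *CRTC1*, a coactivator of CREB, was higher by 0.29 (adjusted p = 0.06), with 1 of its 4 probe sets called. *ATF3*, a stress-induced transcription factor, was higher by 1.50 (adjusted p = 0.0157), with 0.93, 0.44, 1.39 and 3.25 by age. *FOS*, an immediate early gene, was higher by 1.52 over 4 ages (adjusted p = 0.0577) but had -2.21 at 20 d. *PLN*, the phospholamban that inhibits the calcium pump of slow fibres, was lower, with a difference of -0.66 (adjusted p = 0.0264), with all of its 3 probe sets called.

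**Figure D5:**
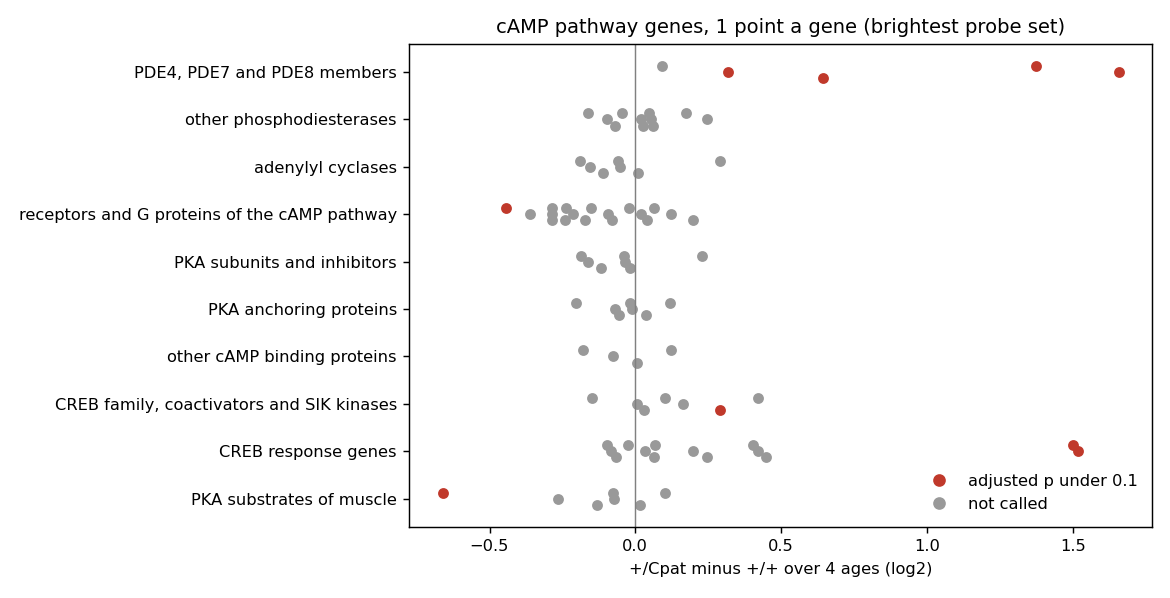
Difference between +/Cpat and +/+ lambs over 4 ages (log2, x axis) of the 5 phosphodiesterase probe sets and of the measured genes of 9 cyclic AMP pathway lists (y axis), with 1 point for each gene, red where called by limma and grey where not. *PDE4D* (1.66) lies farthest to the right, followed by *FOS* (1.52), *ATF3* (1.50) and *PDE7A* (1.38).

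Markers of fibre and cell types moved beside these genes. All 6 measured slow fibre genes were lower in callipyge muscle (median -0.58), with *MYL3* at -1.06 and *MYH7* at -0.57, and their mean level was 11.70 to 12.67 in +/Cpat and 12.75 to 13.20 in +/+ lambs. The 9 skeletal muscle markers, none called, had a mean level of 13.72 to 13.93 and 13.67 to 13.89, and the muscle of both genotypes therefore carried its defining transcripts. All 11 endothelial genes had differences below 0 (median -0.21), and 1 was called, the receptor *FLT1* (-0.31). Of 10 fibroblast genes 1 was called, the collagen *COL1A1* (-0.52, median of the list -0.21). At 80 d the mean level of the fibroblast genes was 8.35 and 8.73 in +/Cpat and 9.11 and 9.24 in +/+ lambs. That of the endothelial genes was 6.56 and 6.73 against 7.01 in both. The other ages differed from this in part. Fibroblast levels were lower in both +/Cpat lambs at 10 d too. At 20 d the genotypes overlapped, and the higher +/Cpat lamb (9.47) was above both +/+ lambs. At 30 d both +/Cpat lambs (9.26 and 9.32) lay between the +/+ lambs. Endothelial levels overlapped at 10, 20 and 30 d. *PDE7A* and *PDE8A* were higher without overlap at all 4 ages, and were called at 80 d alone among single ages. *LPL* (-1.07) was the 1 called of 6 adipocyte genes, which had a median of -0.14, with 2 above 0. *CHRND*, an acetylcholine receptor subunit, was the 1 called of 7 genes of muscle stem and differentiating cells (0.35). The median of that list was 0.02, with 4 of the 7 above 0. None of 11 leukocyte genes (5.12 to 5.74 against 4.96 to 5.54), 5 red blood cell genes, 8 smooth muscle genes and 4 nerve genes was called. The part of these fibre and cell types in the phosphodiesterase differences was not tested, and in whole muscle a change in the cells cannot be told apart from a change in RNA per cell.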

How the data were processed

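Muscle RNA of 22 lambs was read on bovine Affymetrix arrays, 1 for each animal, as the labels give it. The deposited design text counts 10 lambs, in the numbers of each genotype that were sampled at 30 d. The authors deposited MAS5 intensity values without scaling, and RMA values on the log2 scale of the same arrays. Per the labels, MAS5, GCOS and RMA were used, and their versions and which arrays were normalized together are not given in the sources used here. Arrays were grouped by the deposited labels.

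Linear models were fitted to the RMA values by limma 3.58.1 (lmFit and eBayes) in R 4.3.3, with group means of genotype and age over 16 arrays, and of genotype over the 10 arrays at 30 d. Benjamini-Hochberg adjustment covered 24016 probe sets, with a threshold of 0.1, and 112 control probe sets were excluded. Single probe sets were also tested by exact permutation. MAS5 values were scaled to a trimmed mean of 500 (a share of 0.02 trimmed at each end), an offset of 16 was added and log2 taken. Of the probe sets, 13292 had 1 annotated symbol, 86 had several, and 10638 had none listed. A gene in a list was represented by its brightest probe set.

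Named were all members, of each pathway list up to 4 called genes or else the gene with the smallest p, 5 probe sets for likeness to each of *PDE4D*, *PDE7A* and *PDE8A*, and up to 3 genes of the marker lists. The members and lists were chosen with earlier results of these data known. The fit was tested on simulated data. The number of arrays limits the precision. Alternatives were the MAS5 values, other variance and normalization settings, a filter on dim probe sets, leaving out each age or lamb, a term for the array set and a replicate block. The quantitative PCR was not analysed here.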

Additional observations from a re-analysis of the deposited data

Results flagged for a closer look

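*FOS* was noted because the genotypes were separate in opposite directions at different ages. Both callipyge lambs were above both normal lambs at 10 d (difference 3.45), 30 d (3.16) and 80 d (1.68), and both were below them at 20 d (-2.21). At 20 d the callipyge lambs had RMA values of 6.82 and 9.64 and the normal lambs 11.16 and 9.72. The difference at 20 d thus lay in the first lambs, whose arrays were in the set with the higher means, and the second lambs had nearly equal values. The array of the first +/Cpat lamb also had the lowest difference between the 3′ and 5′ actin probe sets (0.05). Its median MAS5 intensity, 11.5, was the lowest of all arrays. The genotype by age interaction of *FOS* was not called by limma (adjusted p = 0.983, unadjusted p = 0.000328).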

How the results depend on the processing

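The calls of *PDE4D* and *PDE7A* over 4 ages held in all 17 other settings and in all 16 fits without 1 lamb, with *PDE4D* differences of 1.45 to 1.85 and *PDE7A* differences of 1.15 to 1.62 over the settings. That of *PDE8A* was lost in 4 of 17 settings. Of the 5 members, 4 were called over 4 ages, and 2 with MAS5 values (with an offset of 16 or 1 or quantile normalized) or without the 80 d lambs. The age effect, called in 3 members, was called in 0 with any MAS5 values. Within single ages, MAS5 values called 0 members at 10, 20 and 30 d, and at 80 d 0 with the offset of 16 and 1 with the other 2. Of all probe sets, the offset of 16 called 1, 0, 0 and 2 in order of age. Quantile normalized MAS5 values called 1, 3, 0 and 3 of all probe sets, and 2, 5, 3 and 6 were called with the offset of 1. Variances not shared between probe sets called 0 members at 10, 20 and 30 d (0 of all probe sets) and 1 at 80 d (4 of all probe sets). Array weights called 0 members at 20 d (0 of all probe sets) and 3 at 30 d (96 of all probe sets). A threshold of 0.05 called 0 members at 30 d (10 of all probe sets). Without 1 lamb, the calls ranged from 0 to 1 at 10 d and at 30 d, from 1 to 2 at 20 d and from 1 to 3 at 80 d, where leaving out the second lamb of either genotype at 80 d left 1. At 30 d over 4 genotypes, the allele effects had 0 calls, and 1 (*PDE4D*, maternal C allele) without the third Cmat/+ lamb, which had the highest *PDE4D* value of its group.

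Signs turned in uncalled results. *PDE7B* at 10 d was 0.070 and 0.073 with MAS5 values at an offset of 16 and 1, and over 4 ages -0.029 without the 20 d lambs. *PDE8A* in C/C minus +/Cpat was 0.076, 0.068 and 0.077 with MAS5 values (offset 16, quantile normalized, offset 1), and in Cmat/+ minus +/+ -0.22, -0.21 and -0.23. Without 1 lamb, the difference ranged from -0.041 to 0.24 for *PDE4A* at 20 d and from -0.30 to 0.087 for *PDE7B* at 30 d. In C/C minus Cmat/+ it ranged from -0.035 to 0.80 for *PDE4D* and from -0.15 to 0.95 for *PDE7A*, and in Cmat/+ minus +/+ from -0.17 to 0.92 for *PDE7A* and from -0.045 to 0.27 for *PDE8A*. That of the maternal C allele ranged from -0.47 to 0.076 for *PDE7A* and from -0.30 to 0.032 for *PDE8A*. The cause was not tested.

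The deviations of same-numbered lambs correlated at -0.01 (10 d), 0.31 (20 d), 0.11 (30 d) and -0.11 (80 d), so the numbers were not taken as pairs. At 20 d both lambs of replicate 1 belonged to the array set with the higher means. With the replicate block 4 members were called over 4 ages and 1214 probe sets in all, against 784 without it, and *PDE8A* in Cmat/+ minus +/+ was -0.025. Over all probe sets, genotype had 51 calls with MAS5 values (60.8% higher, against 48.6% with RMA), 60 when quantile normalized (66.7% higher), 28 with an offset of 1 (60.7% higher), 248 with variances not shared between probe sets, 425 at 0.05, 356, 414 and 142 without the 10, 30 and 80 d lambs, 1385 with the array set, and 367 (without the second +/Cpat lamb at 30 d) to 1550 (without that at 20 d) without 1 lamb. Age had 2, 2 and 5 with the 3 MAS5 settings, 3385 with those variances, 4015 above the median brightness, 3685 at 0.05, 922 without the 30 d lambs, 8384 with the replicate block, 9167 with array weights and 3481 to 10693 without 1 of the same lambs, against 6180. Where 1 lamb was left in a group, it was assumed to vary like the others. The few arrays in each group limit what could be called.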
